A study of Mus musculus with 12 samples.

Results

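The CXC chemokines described here are 8 genes, 8 of the 19938 genes tested. Of these, 4 are neutrophil-attracting (Cxcl1, Cxcl2, Cxcl3 and Cxcl5), and the other 4 are set against them as interferon-induced (Cxcl9, Cxcl10, Cxcl11 and Cxcl16). The genes were listed by name and each was read by 1 probe set. The members were selected on results of the same arrays, chiefly the response of Cxcl2 and Cxcl3 to red blood cells (RBC) and its difference between macrophage diets. The comparisons of macrophages with and without RBC are therefore given below as descriptions, with no p-value for members. The members' differences between macrophage diets without RBC rest on arrays that enter those contrasts, so they too are given with no p-value. Counts of members called in these comparisons stand beside the share of all genes, and nothing is read from them. The comparisons of macrophage diets among macrophages given RBC, and of RBC diets, are given with tests, although their arrays also entered the selection. The macrophage diet comparisons are moreover terms of the selecting difference between macrophage diets. Their p-values and counts for members therefore describe the arrays and give no independent support.

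RNA was taken from peritoneal macrophages of C57BL/6 mice that had been on a high-fat or a chow diet for 12 weeks from the age of 6 weeks. All mice were injected with thioglycollate, an irritant that draws macrophages into the peritoneal cavity, before lavage. In culture the macrophages were given RBC from high-fat mice, RBC from chow mice or no RBC, and 12 Affymetrix Mouse Gene 1.0 ST arrays were hybridised. The 6 groups of 2 arrays were high-fat macrophages with high-fat RBC, with chow RBC and without RBC, and chow macrophages with high-fat RBC, with chow RBC and without RBC. The labels number the animals in each group but do not say whether animals were pooled, and they give no sex, RBC dose or exposure time. All values are log2 signals as deposited, a difference is on the same log2 scale with its standard error (SE), and a gene is called where the adjusted p of limma's moderated test over all genes is below 0.05.

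Chemokines are small secreted proteins that guide leukocytes along a concentration gradient. Cxcl1, Cxcl2, Cxcl3 and Cxcl5 bind Cxcr2, the main chemokine receptor of neutrophils, and activated macrophages make them under control of the transcription factor NF-kB. Cxcl9, Cxcl10 and Cxcl11 bind Cxcr3 on activated T cells and natural killer cells and are classic targets of interferon signalling. Cxcl16 is made as a membrane protein that can be shed. It binds Cxcr6, and on the macrophage surface it takes up oxidised lipoproteins.

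Of the 8 genes, 7 lie on chromosome 5 and Cxcl16 lies on chromosome 11. Cxcl5, Cxcl3, Cxcl1 and Cxcl2 stand in 1 cluster with the platelet chemokine genes Ppbp and Pf4, and Cxcl9, Cxcl10 and Cxcl11 stand in another. RefSeq lists Cxcl11 of the reference strain as a transcribed pseudogene. RefSeq promoter windows (build GRCm38.p6) were found for 5 of the 8 genes. Cxcl2 and Cxcl3, whose signals have the widest spans of the family, their neighbour Cxcl1, and Cxcl10, which has the widest span of the interferon-induced genes, are printed 5′ to 3′ on the gene's strand so that their upstream motifs can be set side by side. Capitals mark matches to the NF-kB motif GGGANNTTC or, in Cxcl10, also to GAAANNGAA, part of the core of an interferon-stimulated response element. The windows are chr5:90891125-90891244 (plus strand) for Cxcl1, chr5:90903779-90903898 (plus strand) for Cxcl2, chr5:90785981-90786100 (plus strand) for Cxcl3 and chr5:92348890-92349139 (minus strand) for Cxcl10.
Cxcl1: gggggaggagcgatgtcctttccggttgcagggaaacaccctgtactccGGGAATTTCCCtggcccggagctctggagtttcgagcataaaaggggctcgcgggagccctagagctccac
Cxcl2: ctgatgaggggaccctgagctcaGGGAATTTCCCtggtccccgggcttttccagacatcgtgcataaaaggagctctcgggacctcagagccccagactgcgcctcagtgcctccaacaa
Cxcl3: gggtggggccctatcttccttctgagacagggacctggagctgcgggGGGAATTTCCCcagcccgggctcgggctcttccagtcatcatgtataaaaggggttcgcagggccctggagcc
Cxcl10: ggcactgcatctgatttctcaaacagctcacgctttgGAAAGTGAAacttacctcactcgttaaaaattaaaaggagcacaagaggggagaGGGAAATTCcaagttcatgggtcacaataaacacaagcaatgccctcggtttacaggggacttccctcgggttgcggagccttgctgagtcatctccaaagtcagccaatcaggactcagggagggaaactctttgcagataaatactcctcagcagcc

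The exact letters GGGAATTTC stand upstream of the start of Cxcl1, Cxcl2 and Cxcl3 on the gene's strand, and in Cxcl9 on the opposite strand. Searched on both strands, they were found in 77 of 32851 promoter windows of 250 bases (0.234%). In Cxcl2 they run from position -97 to -89 relative to the start. In the 3 neutrophil-attracting genes the capitals hold 2 overlapping matches to GGGANNTTC, 1 on each strand. GGGANNTTC was found in 3.23% of the windows and GAAANNGAA in 7.13%, and the windows of both Cxcl9 and Cxcl10 held each of them. The motifs were chosen with the sequences in view, and a match describes the letters only.

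The array medians over the tested genes lay between 5.24 and 5.31. The mean log2 signal of 8 macrophage markers was 9.6 to 9.62 in high-fat and 10.21 to 10.22 in chow macrophages without RBC, and 9.94 to 9.97 in high-fat and 10.19 to 10.29 in chow macrophages given RBC. Without RBC, 4 of the 8 were lower in high-fat macrophages (Cd14 by 1.82, Fcgr1 by 1.81, Adgre1 by 1.17 and Csf1r by 0.81) and 1, Mertk, was higher, by 0.51. Of all genes, 5.82% were called lower and 8.12% higher there. Over 10 neutrophil markers the mean signal was 6.35 to 6.37 in high-fat macrophages with high-fat RBC, 5.98 to 6.05 with chow RBC and 4.99 to 5.05 without RBC. In chow macrophages it was 6.21 to 6.33 with high-fat RBC, 6.17 to 6.27 with chow RBC and 5.25 to 5.26 without RBC. The mean neutrophil marker signal was thus higher on every array of macrophages given RBC than on any array of macrophages without RBC. The same held for 7 platelet markers, at 6.59 to 7.15 with RBC and 5.6 to 6.03 without RBC. Among the neutrophil markers S100a9 had the widest differences with RBC, from 5.1 to 6.7. Ly6g, Camp, Ngp and Ltf were not called with either RBC against none in macrophages of either diet. B cell markers (4 measured) averaged 4.02 to 4.15 in high-fat macrophages without RBC and 5.38 to 5.57 in chow macrophages without RBC. The part of these cells in the chemokine signals was not tested. In bulk RNA, fewer cells of a type and less RNA per cell cannot be told apart.

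Cxcl2, a chemokine that macrophages release early to recruit neutrophils, varied most, with group means spanning 5.19 log2 units. Its signals were 8.13 and 8.11 in high-fat macrophages with high-fat RBC, 7.34 and 7.26 with chow RBC, and 5.04 and 5.65 without RBC. In chow macrophages they were 7.59 and 7.66 with high-fat RBC, 8.06 and 8.0 with chow RBC, and 10.46 and 10.60 without RBC. The groups without RBC held both ends of the order, and every group was separate from its neighbour in that order. Over the 4 groups given RBC the means spanned only 0.82.

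Cxcl3, a close paralog of Cxcl2, followed a different order. Its signals were 5.24 and 4.89 in high-fat macrophages with high-fat RBC, 4.72 and 5.07 with chow RBC, and 5.38 and 4.53 without RBC. In chow macrophages they were 5.86 and 6.08 with high-fat RBC, 6.79 and 6.61 with chow RBC, and 9.77 and 9.64 without RBC. The 3 high-fat groups overlapped each other at the low end, and the 3 chow groups were separate from each other and from all high-fat groups. Cxcl1, Cxcl2 and Cxcl3 are similar in sequence, and cross-hybridisation between their probes was not tested.

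Cxcl1, the main neutrophil chemoattractant of this cluster, had the same order among the chow groups with smaller distances. Its signals were 6.93 and 6.73 in high-fat macrophages with high-fat RBC, 6.73 and 6.69 with chow RBC, and 7.10 and 6.76 without RBC. In chow macrophages they were 7.17 and 7.21 with high-fat RBC, 7.17 and 7.33 with chow RBC, and 8.46 and 8.36 without RBC. The 2 chow groups given RBC overlapped each other and stood above all high-fat arrays. Cxcl5, best known from epithelial cells, was between 3.81 and 4.14 on the 6 high-fat arrays and between 4.29 and 5.24 on the 6 chow arrays, with its widest pair, 5.24 and 4.45, in chow macrophages without RBC.

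Among the interferon-induced genes, Cxcl10 had signals of 4.99 and 5.21 in high-fat macrophages with high-fat RBC, 5.38 and 5.16 with chow RBC, and 4.48 and 4.91 without RBC. In chow macrophages they were 5.07 and 5.93 with high-fat RBC, 5.82 and 5.58 with chow RBC, and 7.65 and 7.28 without RBC. The 4 groups given RBC overlapped their neighbours, and the groups without RBC stood outside them at both ends. Cxcl9, a ligand of Cxcr3 induced mainly by interferon gamma, was 4.52 and 4.33 in high-fat macrophages with high-fat RBC, 4.62 and 4.26 with chow RBC, and 4.44 and 4.11 without RBC. In chow macrophages Cxcl9 was 6.57 and 6.03 with high-fat RBC, 5.78 and 5.73 with chow RBC, and 7.11 and 6.32 without RBC. For Cxcl9 all 6 high-fat arrays lay below all 6 chow arrays, with or without RBC.

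Cxcl16 was 8.80 and 8.76 in high-fat macrophages with high-fat RBC, 8.77 and 8.72 with chow RBC, and 8.24 and 8.02 without RBC. In chow macrophages it was 9.34 and 9.31 with high-fat RBC, 9.45 and 9.33 with chow RBC, and 9.84 and 9.79 without RBC. As for Cxcl9, all high-fat arrays lay below all chow arrays. Cxcl11 stayed between 3.25 and 3.85 on all 12 arrays, and its group means spanned 0.32. Chow macrophages without RBC had the highest mean of the 6 groups for all 8 genes.

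**Figure D1:**
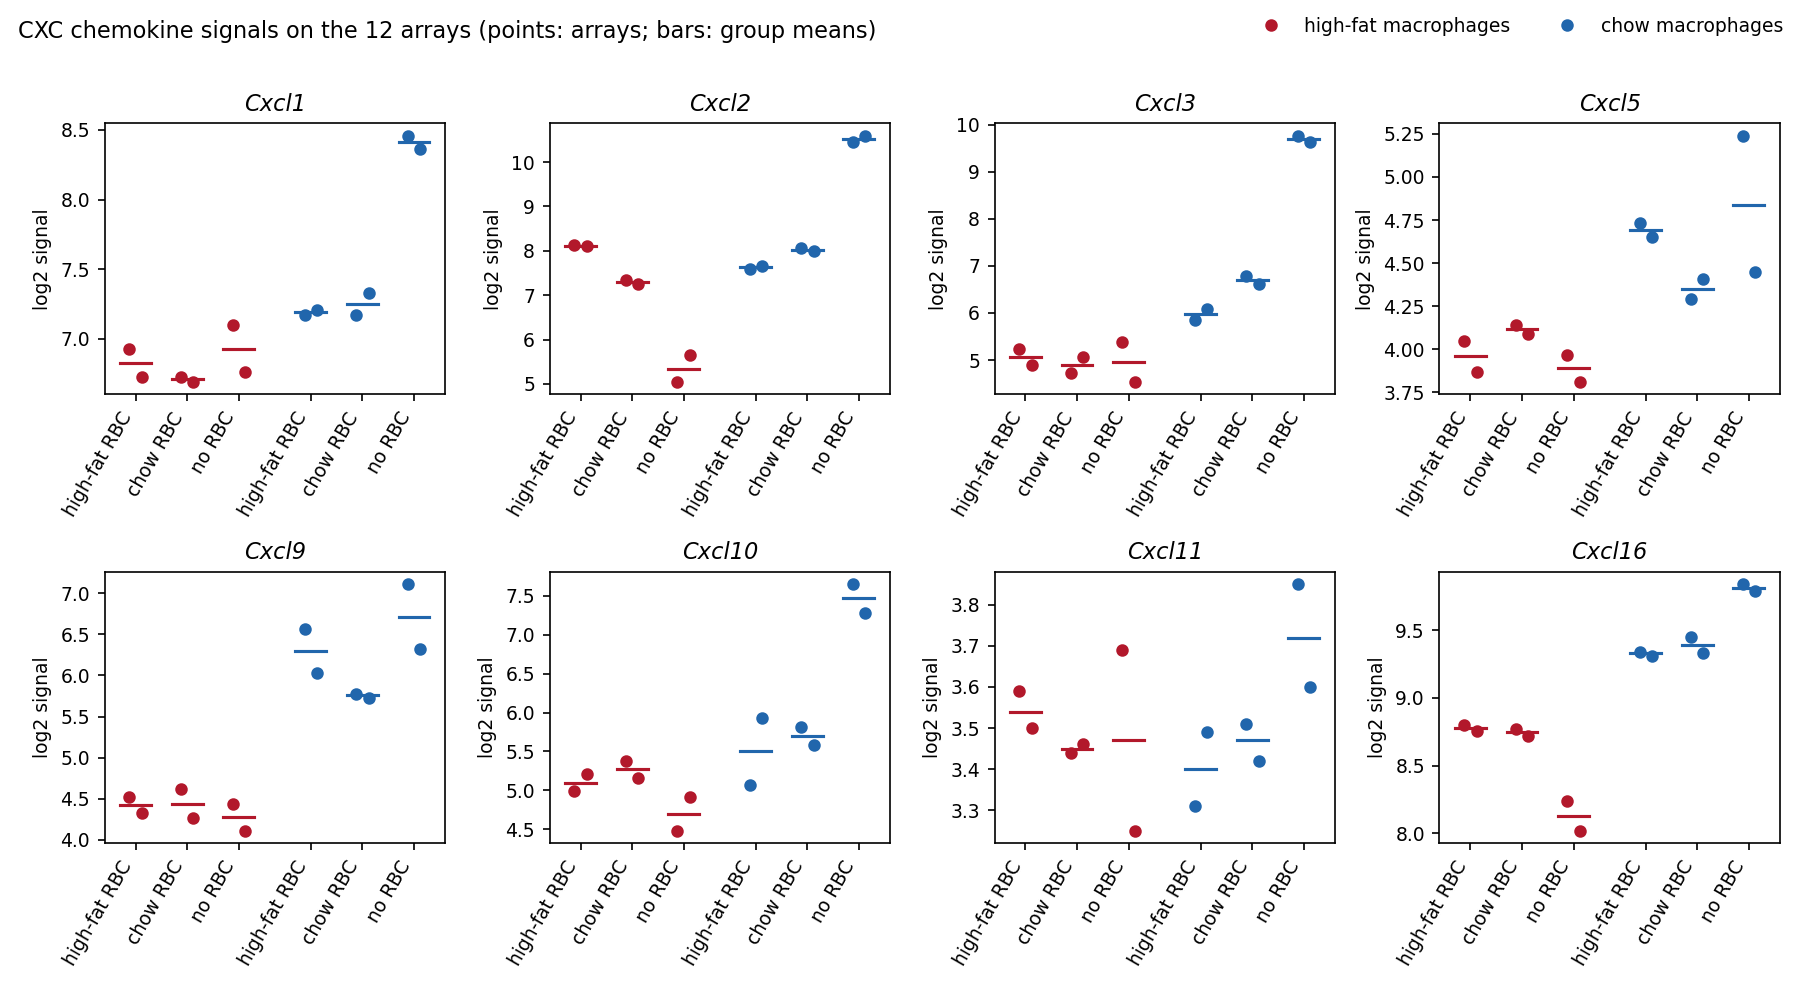
Log2 signal (y axis, a separate scale per gene) of the 8 chemokines on each array; points are arrays, bars are means of the 2 arrays of a group, and groups run along the x axis with high-fat macrophages left of chow macrophages. Chow macrophages without RBC have the highest mean in every panel, though single arrays overlap those of other groups for Cxcl5, Cxcl9 and Cxcl11. For Cxcl2, high-fat macrophages given high-fat RBC (mean 8.12) stand above both groups of chow macrophages given RBC (7.63 and 8.03).

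Without RBC, signals in high-fat macrophages were lower than in chow macrophages, most of all for Cxcl2 and Cxcl3. Cxcl2 was lower by 5.19 ± 0.15 (SE, n = 2 arrays each), or 36.4-fold, and Cxcl3 by 4.75 ± 0.22, or 26.9-fold. Cxcl1 was lower by 1.48 ± 0.12 and Cxcl5 by 0.95 ± 0.18. For these 4 neutrophil-attracting genes the arrays of the 2 groups did not overlap, as was so in the same direction for 24.4% of all genes.

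Among the interferon-induced genes, Cxcl10 was lower by 2.77 ± 0.23, or 6.82-fold, Cxcl9 by 2.44 ± 0.23 and Cxcl16 by 1.68 ± 0.10. Cxcl11 differed by -0.25 ± 0.14 and its arrays overlapped. In this comparison 13.9% of all genes were called (5.82% lower), among them 7 of the 8 members, and nothing is read from that count. The median difference was -3.11 over the 4 neutrophil-attracting genes and -2.06 over the 4 interferon-induced genes, against -0.01 over all genes. In the same samples 4 of 8 macrophage markers were lower and Mertk was higher, and the 4 B cell markers measured were lower. The part of these markers in the chemokine differences was not tested.

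With chow RBC, 5 of the 8 chemokines were lower in high-fat than in chow macrophages, where 2.47% of all genes were called (1.56% lower). Nothing is read from that count, since this difference is a term of the contrast used for selection. Cxcl3 was lower by 1.80 ± 0.22 (limma adjusted p = 2.9e-04) and Cxcl16 by 0.64 ± 0.10 (limma adjusted p = 0.0028). Cxcl9 was lower by 1.32 ± 0.23 (limma adjusted p = 0.0057), Cxcl2 by 0.73 ± 0.15 (limma adjusted p = 0.019) and Cxcl1 by 0.54 ± 0.12 (limma adjusted p = 0.031). Cxcl10 (-0.43 ± 0.23), Cxcl5 (-0.23 ± 0.18) and Cxcl11 (-0.01 ± 0.14) were not called. The calls of Cxcl1 and Cxcl2 were each lost without any 1 of the 4 arrays compared (limma adjusted p of 0.09 to 0.2 for Cxcl1 and 0.092 to 0.15 for Cxcl2), and that of Cxcl9 without either chow array (0.07, 0.052) or the second high-fat array (0.082). The Cxcl1 call was also lost after quantile normalization (0.06) and without either array of chow macrophages with high-fat RBC (0.055).

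With high-fat RBC, 2 of the 8 were lower in high-fat than in chow macrophages, where 1.36% of all genes were called (0.903% lower). Both are from the interferon-induced side, Cxcl9 by 1.87 ± 0.23 (limma adjusted p = 3.5e-04) and Cxcl16 by 0.55 ± 0.10 (limma adjusted p = 0.011). This difference too is a term of the selecting contrast, and nothing is read from the count. The Cxcl16 call was lost without any 1 of the 4 arrays compared (limma adjusted p of 0.073 to 0.13). Cxcl2 was the 1 neutrophil-attracting gene with a positive difference, 0.49 ± 0.15, with no overlap between arrays (limma adjusted p = 0.18). Of all genes, 23.7% were higher with no overlap in this comparison. Cxcl3 differed by -0.91 ± 0.22 (limma adjusted p = 0.06) and Cxcl5 by -0.73 ± 0.18 (limma adjusted p = 0.082). Whether these 3 were called depended on the estimate of spread: without either array of high-fat macrophages without RBC, which are not compared here, the adjusted p was 0.015 for Cxcl2 and 0.0052 for Cxcl3, and without either array of chow macrophages without RBC it was 0.0036 for Cxcl5.

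**Figure D2:**
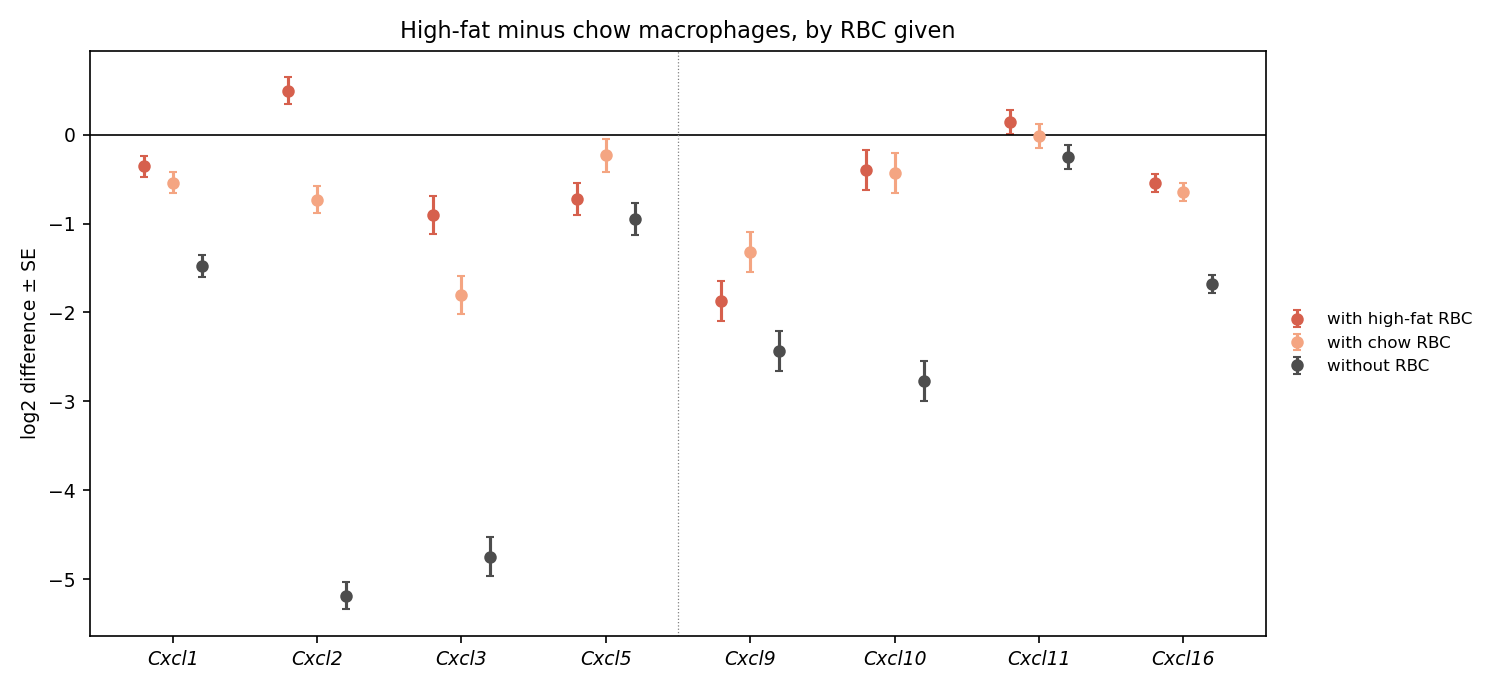
Log2 difference (y axis) of high-fat minus chow macrophages for each chemokine (x axis) with high-fat RBC, chow RBC and no RBC; points are differences of means of 2 arrays and bars are ± 1 SE of the limma fit. Without RBC, Cxcl2 lies at -5.19 and Cxcl3 at -4.75, while with RBC all 8 genes lie between -1.87 and 0.49.

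Beside macrophages of the same diet without RBC, the signals of macrophages given RBC differed in opposite ways between diets for Cxcl2. The comparisons with high-fat and with chow RBC share the arrays without RBC. In high-fat macrophages, Cxcl2 was higher by 2.77 ± 0.15 with high-fat RBC and by 1.95 ± 0.15 with chow RBC. In chow macrophages it was lower by 2.91 ± 0.15 with high-fat RBC and by 2.5 ± 0.15 with chow RBC.

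Cxcl3 had no such opposite pair. In high-fat macrophages its differences were 0.11 ± 0.22 with high-fat RBC and -0.06 ± 0.22 with chow RBC, while in chow macrophages it was lower by 3.73 ± 0.22 and 3.0 ± 0.22. Cxcl1 likewise differed by -0.10 ± 0.12 and -0.22 ± 0.12 in macrophages from high-fat mice. It was lower by 1.22 ± 0.12 and 1.16 ± 0.12 in chow macrophages. Cxcl16 was higher by 0.65 ± 0.10 and 0.62 ± 0.10 in high-fat macrophages, and lower by 0.49 ± 0.10 and 0.42 ± 0.10 in chow macrophages. Cxcl10 was lower by 1.97 ± 0.23 and 1.77 ± 0.23 in chow macrophages, with differences of 0.40 ± 0.23 and 0.57 ± 0.23 in high-fat macrophages.

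In high-fat macrophages 2 of the 8 were called with high-fat RBC (0.752% of all genes, 0.647% higher) and 2 with chow RBC (0.647% of all genes, 0.557% higher), in each case Cxcl2 and Cxcl16, both higher. In chow macrophages 5 were called with high-fat RBC (8.34% of all genes, 2.93% lower) and 6 with chow RBC (9.18% of all genes, 2.94% lower), all lower. The contrast between macrophage diets in these values, on which the members were selected, was called for 5.67% of all genes and for 5 of the 8. Nothing is read from these counts or from the calls behind them, since the genes were selected on these contrasts. Beside these values, neutrophil markers called higher numbered 5 of 10 with high-fat RBC and 4 of 10 with chow RBC in high-fat macrophages, and 5 of 10 with either RBC in chow macrophages. Cxcr2, the receptor of the neutrophil-attracting genes, was called higher in all 4 comparisons, by 0.63 to 1.24. Its call with chow RBC in high-fat macrophages (limma adjusted p = 0.037) was lost in at least 1 fit with 1 array left out. The group means of Cxcr2 were 3.74 to 5.13, below the lowest array median of 5.24. No other CXC receptor or decoy measured was called in these comparisons. Platelet markers called higher numbered 3 of 7 with high-fat RBC and 4 of 7 with chow RBC, in macrophages of either diet. Among them Ppbp differed by 3.5 to 5.47, while Pf4 differed by -0.23 to 0.12 and was not called. Each platelet count, and the neutrophil counts with chow RBC, were lower in some fits with 1 array left out. In chow macrophages, 5.41% of all genes were called higher with high-fat RBC and 6.23% with chow RBC. The part of either cell type in the chemokine values was not tested.

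**Figure D3:**
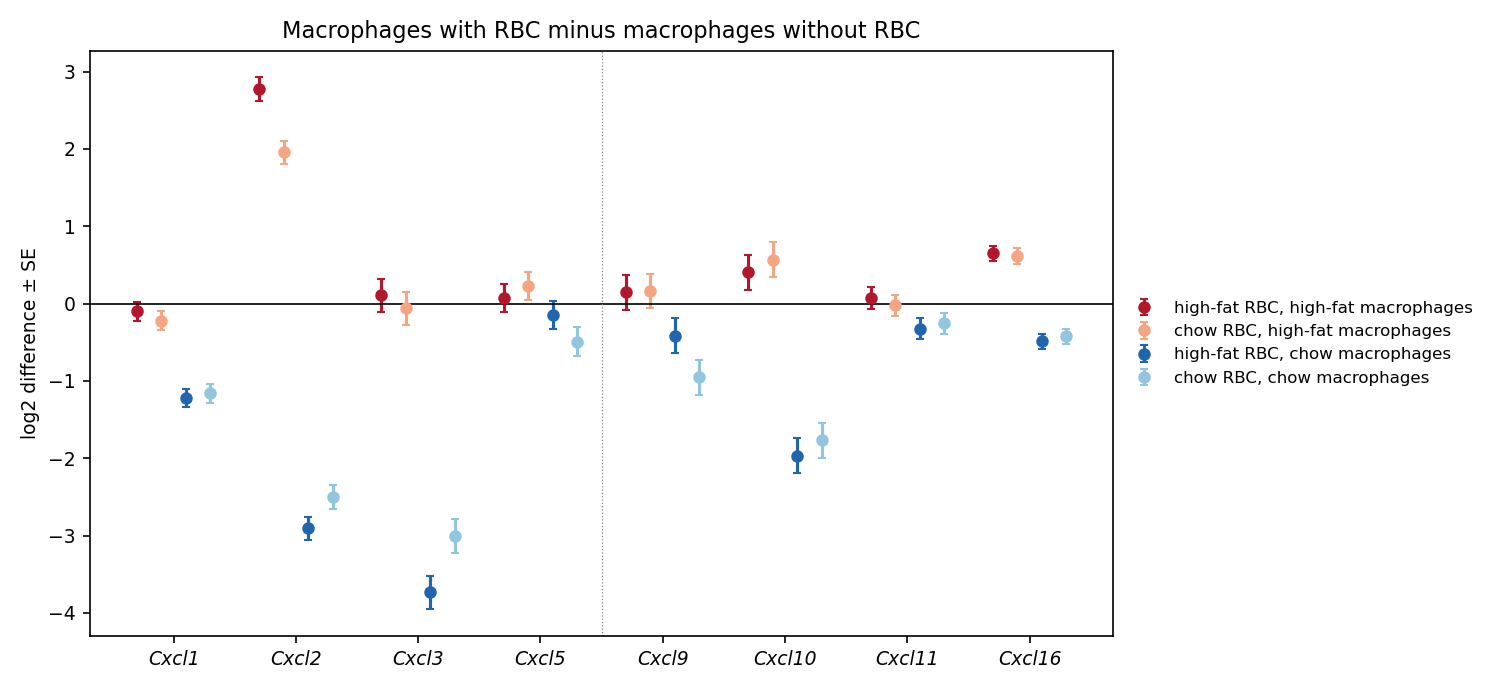
Log2 difference (y axis) of macrophages with RBC minus macrophages without RBC for each chemokine (x axis), by macrophage and RBC diet; points are differences of means of 2 arrays and bars are ± 1 SE of the limma fit. Cxcl2 lies at 2.77 and 1.95 in high-fat macrophages and at -2.91 and -2.5 in chow macrophages.

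Whether the diet of the RBC donor mattered was asked within each macrophage diet, and none of the 8 chemokines was called. In high-fat macrophages, where 5 of all genes were called (0.0251%), Cxcl2 was higher with high-fat than with chow RBC by 0.82 ± 0.15 (95% interval 0.50 to 1.14, limma adjusted p = 0.13). Whether it was called depended on the estimate of spread, with an adjusted p of 0.0081 without either array of high-fat macrophages without RBC. The other 7 had differences between -0.165 and 0.17, with 95% intervals that all included 0. Of 10 neutrophil markers 0 were called by limma in this comparison (6 had an unadjusted p below 0.05), with a median difference of 0.38 and values between -0.209 (Ngp) and 0.92 (Retnlg). S100a9 differed by 0.88 ± 0.14 (limma adjusted p = 0.077) and Retnlg by 0.92 ± 0.16 (limma adjusted p = 0.11) in this comparison, and their part in the Cxcl2 value was not tested. S100a9 was called without either array of chow macrophages without RBC (0.015). Of the 5 upstream cytokines 1 was called, Il1b, higher by 1.05 ± 0.15 (limma adjusted p = 0.026), a call lost without any 1 of the 4 arrays compared (0.09 to 0.36) or either array of chow macrophages with chow RBC (0.067), and after quantile normalization (0.054).

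In chow macrophages limma called 0 genes for RBC diet, with 555 of 19938 at an unadjusted p below 0.05. That is fewer than the share of 0.05 that would pass if no gene differed. Cxcl3 had a difference of -0.73 ± 0.22 (95% interval -1.2 to -0.27), Cxcl2 of -0.41 ± 0.15 (-0.73 to -0.08) and Cxcl9 of 0.54 ± 0.23 (0.05 to 1.02), each with a limma adjusted p of 1. The difference between the 2 kinds of macrophage in the Cxcl2 value was 1.23 ± 0.21 and was not called (limma adjusted p = 0.67). There 0 of all genes were called and 718 had an unadjusted p below 0.05, again fewer than that share. Without either array of high-fat macrophages without RBC, the adjusted p for Cxcl2 was 0.0096.

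**Figure D4:**
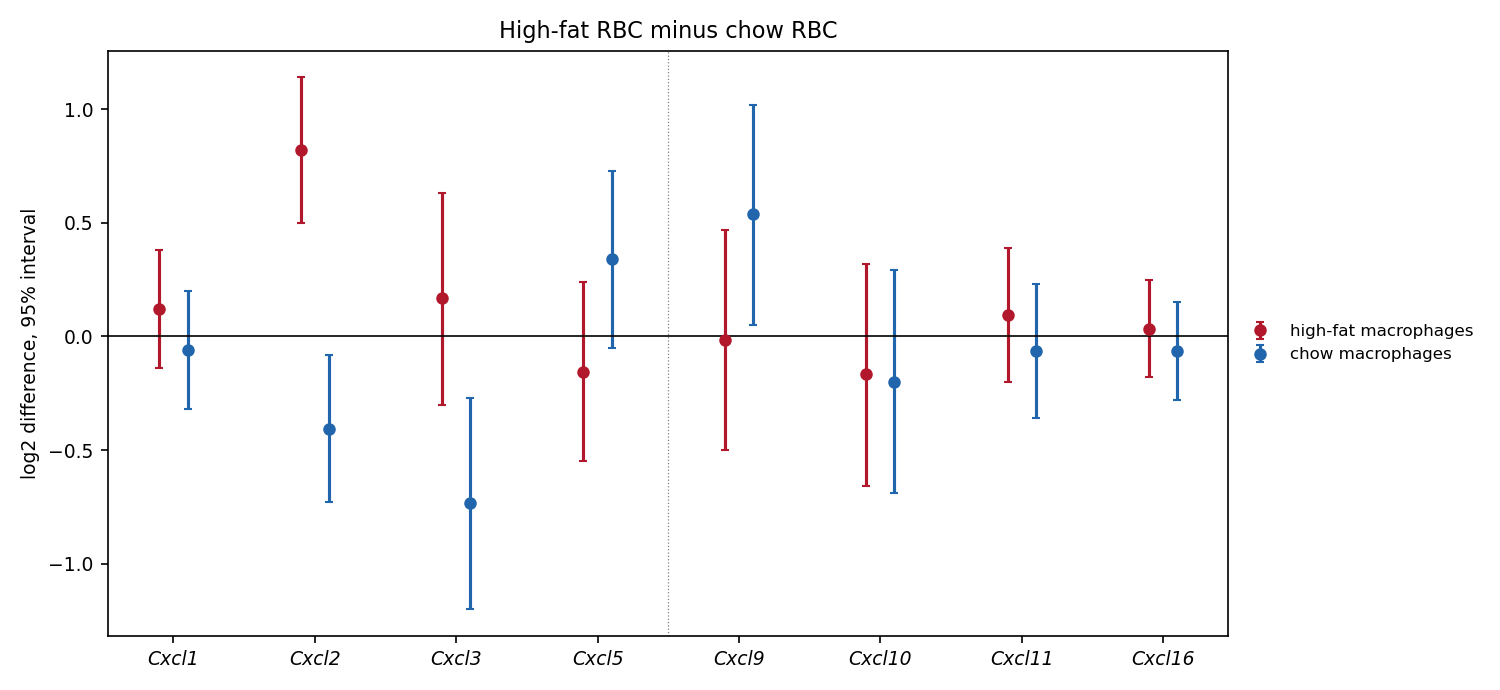
Log2 difference (y axis) of high-fat RBC minus chow RBC for each chemokine (x axis) in high-fat and chow macrophages; points are differences of means of 2 arrays and bars are 95% intervals of the limma fit, unadjusted. The interval of Cxcl2 runs from 0.50 to 1.14 in high-fat macrophages and from -0.73 to -0.08 in chow macrophages.

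Of 7 other CXC chemokines, 3 were lower and 2 higher in high-fat than in chow macrophages without RBC, where 5.82% of all genes were lower and 8.12% higher. Pf4, the platelet factor that macrophages also make, was lower by 1.31 ± 0.10 (limma adjusted p = 4.3e-07), and Cxcl13, which attracts B cells through Cxcr5, by 2.38 ± 0.29 (limma adjusted p = 6.1e-05). Ppbp was lower by 1.14 ± 0.30 (limma adjusted p = 0.02), a call lost without the first chow array (0.2) or the second high-fat array (0.12). Cxcl12, the ligand of Cxcr4, was higher by 1.31 ± 0.13 (limma adjusted p = 5.6e-06) and Cxcl14 by 0.73 ± 0.10 (limma adjusted p = 2e-04).

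Of these 7, Ppbp had the widest differences with RBC, as a description: it was higher with high-fat RBC than without RBC by 4.65 ± 0.30 in high-fat macrophages and by 3.5 ± 0.30 in chow macrophages, and with chow RBC by 5.47 ± 0.30 and 4.14 ± 0.30.

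With RBC, Pf4 was lower in high-fat macrophages by 0.95 ± 0.10 with high-fat RBC (limma adjusted p = 6.7e-05) and by 1.17 ± 0.10 with chow RBC (8.6e-06). Cxcl13 was lower with chow RBC by 1.60 ± 0.29 (limma adjusted p = 0.009), a call lost without the second chow array (0.11) or either high-fat array (0.063, 0.074). Of 8 CXC receptors and decoys, 1 was called in high-fat against chow macrophages without RBC, near the 13.9% of all genes called there. It was Cxcr5, lower by 0.58 ± 0.10 (limma adjusted p = 0.00077). With chow RBC Cxcr5 was lower by 0.40 ± 0.10 (limma adjusted p = 0.042), and that call was lost without any 1 of 10 of the 12 arrays (0.056 to 0.25).

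Of 13 NF-kB factors and transcript decay genes, 12 were lower in high-fat macrophages without RBC and none was higher, with a median difference of -1.0 against -0.01 over all genes. Of all genes, 5.82% were called lower and 8.12% higher there. The gene lists were chosen with earlier results of these data known. Bcl3, a nuclear NF-kB cofactor, was lower by 1.91 ± 0.15 (limma adjusted p = 8.2e-07) and Nfkbie, an NF-kB inhibitor that is itself an NF-kB target, by 1.83 ± 0.13 (limma adjusted p = 2.2e-07). Of 5 upstream cytokines 3 were lower, among them Tnf by 2.17 ± 0.11 (limma adjusted p = 8.4e-09). With high-fat RBC limma called 0 genes of this list (2 had an unadjusted p below 0.05), and with chow RBC the transcript decay gene Zfp36l1 was lower and no NF-kB factor was called. The Zfp36l1 call was lost without the first chow array (0.084) or the second high-fat array (0.068).

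All 16 interferon-stimulated genes measured were lower in high-fat macrophages without RBC (median -2.17), 5 were lower with high-fat RBC (median -0.65) and 6 with chow RBC (median -0.47). Leaving out 1 array at a time, these counts were 16 throughout without RBC, 2 to 6 with high-fat RBC and 2 to 7 with chow RBC. Over all genes, 5.82% were called lower without RBC, 0.903% with high-fat RBC and 1.56% with chow RBC. Oas3, an antiviral enzyme, was lower by 1.36 ± 0.11 with high-fat RBC (limma adjusted p = 1.2e-05), by 1.02 ± 0.11 with chow RBC (0.00015) and by 1.88 ± 0.11 without RBC (5.8e-08). Irf7, a transcription factor that amplifies interferon responses, was lower by 2.48 ± 0.20 with high-fat RBC (limma adjusted p = 8.9e-06), by 2.02 ± 0.20 with chow RBC (5.3e-05) and by 3.54 ± 0.20 without RBC (3.1e-08). Beside these, B cell markers were lower in high-fat macrophages for 2 of 4 with high-fat RBC, 3 of 4 with chow RBC and 4 of 4 without RBC, and their part was not tested.

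Likeness of profile was measured as the root mean square difference between centred log2 signals over the 12 arrays, as a description. The gene outside the family nearest to Cxcl2 was Acod1, the enzyme that makes itaconate in activated macrophages, at 0.29, followed by Ifit1 at 0.58 and Clec4e at 0.59. Acod1 averaged 8.51, 8.37 and 6.19 in high-fat macrophages with high-fat RBC, chow RBC and no RBC, and 8.53, 8.43 and 11.24 in chow macrophages in the same order. The genes nearest to Cxcl10 were Traf1 at 0.22, Ms4a4c at 0.26 and Gbp5, an interferon-induced GTPase, at 0.28. Among the members themselves, the distance had a median of 1.14 over the 6 pairs of neutrophil-attracting genes, 0.62 over the 6 pairs of interferon-induced genes and 0.75 over the 16 mixed pairs. The signals were not scaled, so the distance depends on how wide the spans are (5.19 for Cxcl2, 0.32 for Cxcl11) and does not compare shape alone. The nearest pair was a mixed one, Cxcl5 and Cxcl16, at 0.31.

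**Figure D5:**
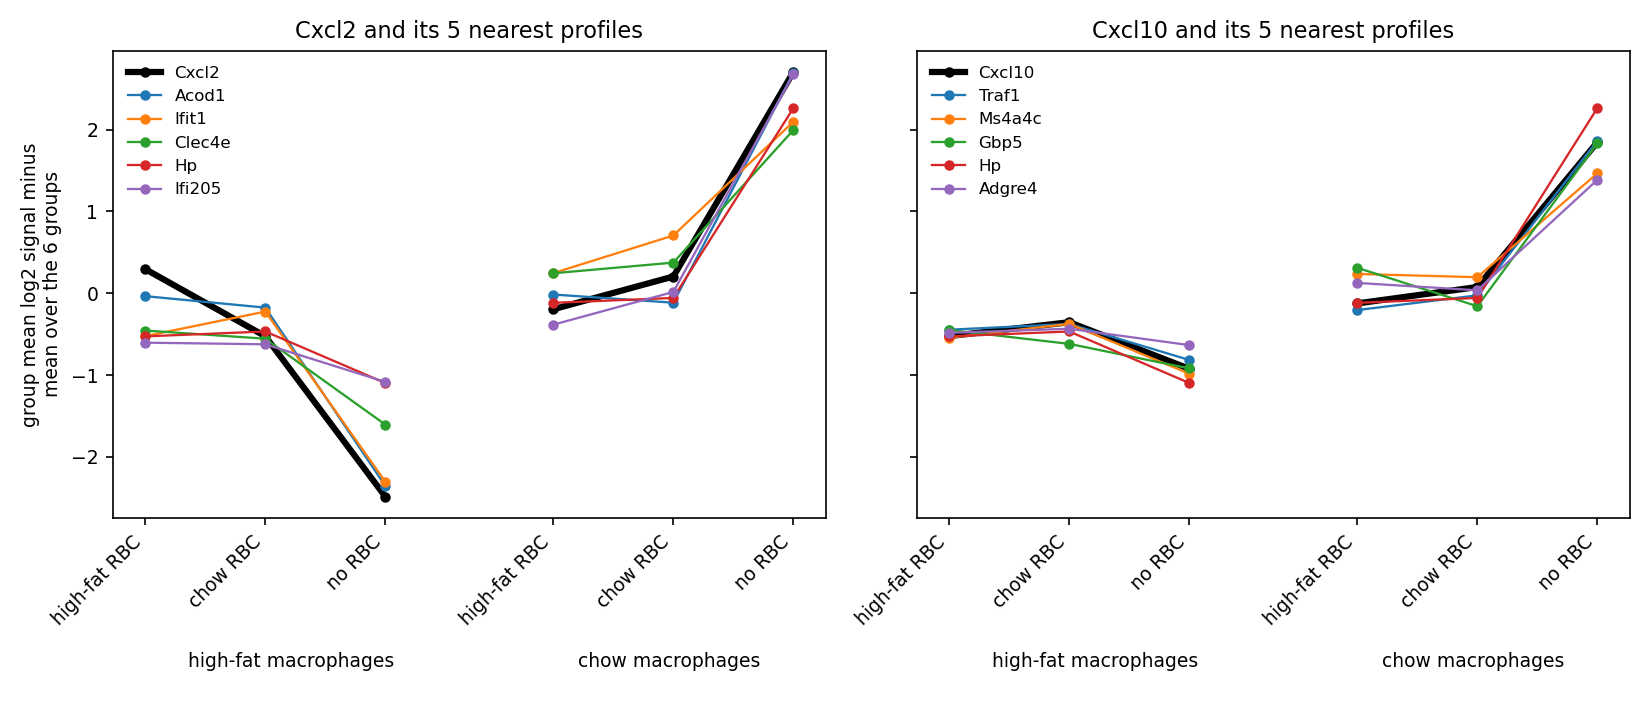
Group mean log2 signal minus the mean over the 6 groups (y axis) for Cxcl2 with its 5 nearest genes (left) and Cxcl10 with its 5 nearest genes (right), by group (x axis); lines join groups of 1 macrophage diet. Acod1 lies closest to Cxcl2 and Traf1 closest to Cxcl10, and all genes peak in chow macrophages without RBC.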

How the data were processed

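Expression was measured on 12 arrays, 6 groups of 2, grouped by the labels. The authors deposited 1 table of log2 values; the log2 scale was read from its range (1.46 to 13.33), and the summarisation and normalization are not given in the sources used here. No detection calls or raw intensities were used, which leaves signal over background unknown; precision is limited by having few arrays. Of 35557 probe sets, 21789 had 1 gene symbol; probe sets with several (1621) or no symbol (12146) were left out, and the brightest probe set stood for each of 999 genes with several, which left 19938 genes. One limma fit (version 3.58.1, R 4.3.3) over the 6 groups gave every contrast, with Benjamini-Hochberg adjustment over all genes; it was tested on simulated data. P-values measure only the spread between 2 arrays a group. The difference between macrophage diets in the response to RBC is arithmetic on the macrophage diet differences and so not independent of them; where selection used a contrast or its arrays without RBC, no p is given for members. Deviations of same-numbered arrays within a diet had correlations of -0.08 to 0.34, highest between high-fat macrophages with high-fat RBC and without RBC. Between diets the correlations were -0.23 to 0.07. The numbers were not taken as pairs, and a replicate block was fitted as an alternative.

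The members and gene lists were chosen with earlier results of these data known. Named genes are the 8 members, up to 4 genes of smallest p per list and comparison, and the 5 genes nearest in profile to Cxcl2 and to Cxcl10. Alternatives were quantile normalization, removal of the dimmest 33.3% of genes, trend and robust moderation, the mean of probe sets, a replicate block and leaving out each array. Promoters are RefSeq's (GRCm38.p6).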

Additional observations from a re-analysis of the deposited data

Results flagged for a closer look

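The difference between macrophages with and without RBC was set against macrophage diet, the contrast on which the members were selected, so the values are a description with no test. Each is the mean difference in high-fat macrophages minus that in chow macrophages (log2 ± SE). It was 5.07 ± 0.18 for Cxcl2, 3.39 ± 0.26 for Cxcl3, 2.35 ± 0.28 for Cxcl10, 1.09 ± 0.12 for Cxcl16 and 1.03 ± 0.15 for Cxcl1. Groups of 2 arrays allow no search for outlying arrays.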

How the results depend on the processing

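Of 1474 member differences under alternatives, 1397 kept their direction and side of the threshold, 30 lost and 20 gained a call, and 27 changed sign. Of 408 values of called differences with 1 array left out, 29 were no longer called. Most of those called differences belong to contrasts used for selection or to macrophage diet without RBC. The pooled count therefore does not describe the tested calls, of which those of Cxcl1, Cxcl2, Cxcl9 and Cxcl16 were lost in fits described above. Of 3489 values of list genes under all alternatives, 195 lost a call, and of 5610 list counts 238 moved by over 1.5 times. Leaving out 1 array, members called numbered 2 to 5 for macrophage diet with chow RBC, 1 to 4 with high-fat RBC, 1 to 2 for either RBC against none in high-fat macrophages, and 0 to 1 for RBC diet in high-fat macrophages and for its difference between macrophage diets. Trend and robust moderation called 4 for macrophage diet with high-fat RBC and 1 for RBC diet in high-fat macrophages (Cxcl2, adjusted p = 0.034). Over all genes it called 417 against 272, 13 against 5, and, for chow RBC against none in high-fat macrophages, 201 against 129. With 1 array left out, the lowest counts over all genes were 1600 of 2780 for macrophage diet without RBC, 181 of 492 with chow RBC and 121 of 272 with high-fat RBC, and 0 of 5 for RBC diet in high-fat macrophages. No difference that changed sign was called. With 1 array left out these ran, for high-fat RBC against none in high-fat macrophages, from -0.27 to 0.07 (Cxcl1), -0.32 to 0.53 (Cxcl3), -0.02 to 0.16 (Cxcl5), -0.01 to 0.31 (Cxcl9) and -0.15 to 0.3 (Cxcl11). For chow RBC against none there they ran from -0.49 to 0.36 (Cxcl3), -0.02 to 0.34 (Cxcl9) and -0.24 to 0.2 (Cxcl11, 0.02 after quantile normalization), and for high-fat RBC against none in chow macrophages from -0.55 to 0.24 (Cxcl5). For macrophage diet they ran from -0.83 to 0.03 (Cxcl10, high-fat RBC) and -0.06 to 0.03 (Cxcl11, chow RBC). For RBC diet they ran in high-fat macrophages from -0.01 to 0.34 (Cxcl3) and -0.19 to 0.16 (Cxcl9), in chow macrophages from -0.14 to 0.02 (Cxcl1), -0.63 to 0.23 (Cxcl10) and -0.16 to 0.03 (Cxcl11), and between them from -0.4 to 0.46 (Cxcl10). The cause was not tested. With the replicate number as a block, no member call was lost. The Cxcl9 difference between macrophage diets in the response to RBC crossed the threshold with this block. The members were selected on that contrast, so no p is given and nothing is read from it. With the block the Cxcr5 difference between macrophage diets with chow RBC (adjusted p = 0.056) and the Il1b difference between RBC diets in high-fat macrophages (0.055) were not called. Genes called for RBC diet numbered 3 in high-fat and 2 in chow macrophages.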
